A study of Eublepharis macularius with 4 samples.

Results

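The DNAJ co-chaperones were taken as every feature of the count matrices whose name is DNAJA, DNAJB or DNAJC followed by digits, which gave 42 of 24025 features: 4 DNAJA, 10 DNAJB and 28 DNAJC genes. The study profiled single cells from the jaw soft tissue of adult leopard geckos (Eublepharis macularius), which replace their teeth throughout life, with 10x 3' libraries of cells sorted as alive by exclusion of propidium iodide. For animal LG252 the digestion used 1.5 U/ml collagenase D with 2.4 U/ml dispase II and lasted 4 to 5 h at 37 °C, and for animal LG255 it used 10 mg/ml of a Bacillus protease and lasted 6 h at 4 °C. Each animal gave 2 libraries, called replicates in the labels without a statement of whether they were separate tissue pieces, jaws or runs. With 1 animal for each digestion, an effect of the animal and an effect of the digestion cannot be told apart, and every difference below is one between LG252 and LG255. P-values here measure only the spread between libraries of 1 animal, which may be technical.

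DNAJ proteins, also called J-domain proteins or HSP40 proteins, carry a J domain whose histidine-proline-aspartate motif stimulates the ATPase of HSP70 chaperones, so that HSP70 closes on a client protein. DNAJA proteins keep the zinc finger region of bacterial DnaJ, DNAJB proteins keep a glycine- and phenylalanine-rich region without the zinc finger, and DNAJC proteins share the J domain alone and are otherwise diverse. In human and mouse cells the family is spread over the cytosol, endoplasmic reticulum, mitochondria and vesicles, and some members are classical heat shock genes. The roles given below are those of the human or mouse proteins unless another species is named.

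Cells were put into 3 classes by their UMI counts, a UMI being 1 captured transcript molecule. Epithelial cells had 10 or more UMIs of LOC129339097, mesenchymal cells had 5 or more UMIs of COL1A1, COL1A2, DCN and LUM together, and the other cells met neither rule. LG252 replicates 1 and 2 held 567 and 630 epithelial cells, and LG255 replicates 1 and 2 held 455 and 889. Mesenchymal cells numbered 395 and 794 in LG252 against 19 and 106 in LG255, and other cells numbered 3377 and 757 in LG252 against 270 and 283 in LG255. UMIs were summed over the cells of a class in each library, and levels are given as CPM, the UMIs of a gene scaled to the total UMIs of that class and library. The epithelial sums held 7375258 and 6015685 UMIs in LG252 and 3383647 and 8132619 in LG255, while the smallest sum, mesenchymal cells of LG255 replicate 1, held 108984 UMIs, so that 3 UMIs there were worth 27.5 CPM.

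The class names were checked against markers. The epithelial marker EPCAM stood at 421 and 565 CPM in the epithelial class of LG252 and at 468 and 467 CPM in that of LG255. The summed mesenchymal markers in the mesenchymal class lay between 15140 and 25322 CPM over the 4 libraries. That sum includes COL1A1, COL1A2, DCN and LUM, which define the class, so it is no check of the name. COL3A1, a mesenchymal marker outside the rule, had 5443 and 2751 CPM there in LG252, against 4102 and 3430 CPM in LG255. In the epithelial class it had at most 13.5 CPM in any library. The classes were not alike between the animals in other markers. In the epithelial class, the epithelial marker TP63 was lower in LG252 (62.2 and 71.0 CPM) than in LG255 (134 and 96.8 CPM). PERP, also an epithelial marker, was higher in LG252 (1101 and 1311 CPM) than in LG255 (815 and 938 CPM). Mesenchymal cells of LG252 held more DCN (3740 and 1654 CPM, LG255 569 and 1157) and LUM (2598 and 2290 CPM, LG255 881 and 1189). The remaining mesenchymal markers overlapped between the animals in that class. Among epithelial cells, 16.4% and 8.25% had an immune marker UMI in LG252, against 1.10% and 1.91% in LG255, and the 8 summed immune markers reached 29.2 and 38.9 CPM in LG252, against 1.48 and 5.78 CPM in LG255. In mesenchymal cells these markers summed to 68.1 and 29.6 CPM in LG252, against 0 and 2.13 CPM in LG255. Their part in the results was not tested in those classes. An immune marker UMI was found in 79.2% and 51.4% of other cells in LG252, against 14.1% and 14.5% in LG255, and EPCAM in other cells reached 30.6 and 102 CPM in LG252, against 428 and 372 CPM in LG255. The median mitochondrial share in epithelial cells was 1.12% and 1.50% in LG252, against 4.84% and 3.79% in LG255, and its part in the results was not tested. Any pair of libraries shared 2 to 8 cell barcodes.

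The 42 genes lie on 17 chromosomes of the MPM_Emac_v1.0 assembly, all were annotated as protein coding, and all but DNAJB8 had at least 1 UMI in the 3 classes. DNAJC2, DNAJC4, DNAJC17, DNAJC19 and DNAJC21 overlap another annotated gene, where reads could have been assigned to either. The overlapping neighbours of DNAJC4 and DNAJC19 had 0 UMIs in all 3 classes, and that of DNAJC21 had at most 1 in any library. DNAJB1, a heat-inducible member in mammals, was not among the features under that name, so it was not analysed here.

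Summed DNAJ transcripts were higher in LG252 than in LG255 in all 3 classes, and a single gene, DNAJA4, made up a large share of the sum in LG252. In epithelial cells the family summed to 2225 and 2018 CPM in LG252, against 1007 and 807 CPM in LG255. In mesenchymal cells it summed to 1973 and 2030 CPM in LG252, against 1083 and 1169 CPM in LG255. In other cells the sum was 3087 and 2122.5 CPM in LG252, against 1004 and 722 CPM in LG255. The libraries of the animals did not overlap in any class. DNAJA4 supplied 30.7% and 27.5% of the family's epithelial UMIs in LG252, against 0.235% and 0.335% in LG255. Its share in other cells was 50.3% and 41.4% in LG252, against 0.752% and 0.767% in LG255. With DNAJA4 left out, the epithelial sum was still 1543 and 1463 CPM in LG252 against 1004.5 and 804 CPM in LG255. The mesenchymal sum without it was 1255 and 1479 CPM in LG252 against 1083 and 1167 CPM in LG255. The gap between the animals was thus narrow there. A large part of both remaining gaps was DNAJC15. In epithelial cells DNAJC15 had 551 and 442 CPM in LG252 against 198 and 68.0 CPM in LG255. In mesenchymal cells it had 335 and 425 CPM in LG252 against 138 and 57.5 CPM in LG255. On the means, that difference was at least as wide as the remaining mesenchymal gap.

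**Figure D1:**
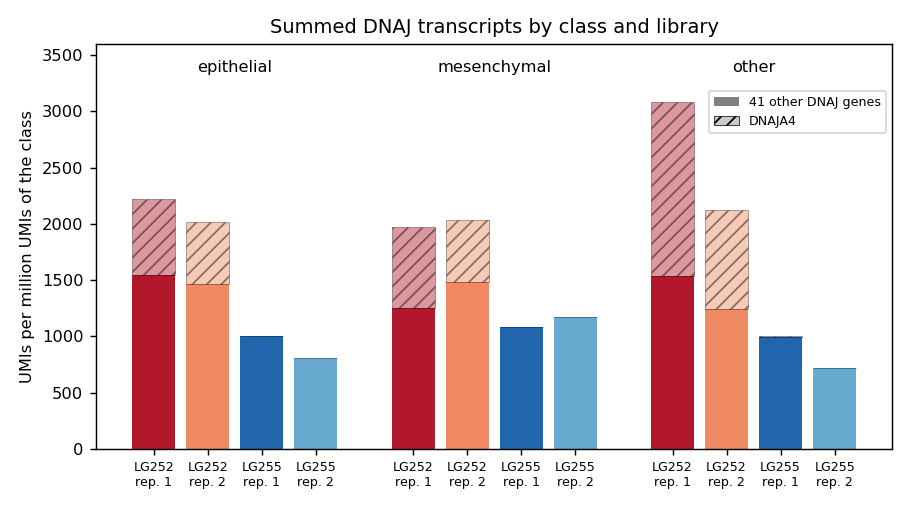
Summed level of the 42 DNAJ genes in CPM (vertical axis) in each library, for epithelial, mesenchymal and other cells. The hatched part of a bar is DNAJA4 and the plain part the 41 other genes; the hatched part is visible only in LG252, where the epithelial sums reach 2225 and 2018 CPM.

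Epithelial cells gave the deepest comparison. Of the 38 members that passed the filter on low counts, 13 were higher in LG252 and 5 were lower at an adjusted p under 0.05 in edgeR's quasi-likelihood test. Over all 12591 genes tested, 20.5% were higher and 12.8% were lower, so the 34.2% of members that were higher stood above that background and the 13.2% that were lower stood near it. A member that passed the filter only through the animal in which it was high had to differ, so these shares describe the tested members and not the family. The median log2 fold change was 0.33 over the members and -0.02 over all genes, and 24 of the 38 members had a value above 0. DNAJB8, DNAJB13, DNAJC5B and DNAJC10 were not tested, with at most 12 UMIs in any epithelial sum. By type, 2 of 4 DNAJA, 3 of 8 DNAJB and 8 of 26 DNAJC genes were higher in LG252. Leaving out LG255 replicate 2 left 10 of the 18 calls, 9 higher and 1 lower, and leaving out LG255 replicate 1 left 13, 10 higher and 3 lower.

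The cytosolic partners of HSP70 held the largest difference. Of 8 tested, DNAJA1, DNAJA4, DNAJB5 and DNAJB6 rose and DNAJA2 fell, where 20.5% of all genes tested were higher and 12.8% lower. DNAJA4, a heat-inducible cytosolic co-chaperone (chromosome 18, 36382543 to 36393586), had 682 and 555 CPM in LG252, against 2.36 and 2.71 CPM in LG255. These levels rest on 5031 and 3340 UMIs in LG252 and on 8 and 22 UMIs in LG255, and the animals do not overlap. The log2 fold change was 7.98 with an SE of 0.33 (adjusted p = 1.44e-05 in edgeR), the largest of any member tested in epithelial cells. The pooled ratio, 240, had a 95% counting interval of 168 to 356, which covers counting error only.

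DNAJA1 is a farnesylated general co-chaperone and lies on chromosome 8 at 141189813 to 141200546. It reached 112 and 109 CPM in LG252, against 27.2 and 27.7 CPM in LG255, a log2 fold change of 2.11 with an SE of 0.20 (adjusted p = 1.26e-04 in edgeR). The libraries of each animal were nearly alike, and the animals were well separated. DNAJB6, which holds back the aggregation of polyglutamine proteins (chromosome 11, 81497416 to 81559320), had 203 and 209 CPM in LG252, against 68.9 and 75.0 CPM in LG255. Its log2 fold change was 1.62 with an SE of 0.22 (adjusted p = 6.75e-04 in edgeR). DNAJB5, a member of the HSP40 group close to DNAJB1 (chromosome 8, 1384152 to 1401927), had 17.6 and 22.4 CPM in LG252, against 4.43 and 5.04 CPM in LG255. That is a log2 fold change of 2.14 with an SE of 0.27 (adjusted p = 5.47e-04 in edgeR).

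DNAJA2 moved the other way. This constitutive cytosolic co-chaperone (chromosome 16, 36554154 to 36573717) had 141 and 118 CPM in LG252, against 225 and 210 CPM in LG255. The animals did not overlap, but the log2 fold change of -0.63 (SE 0.21) was the weakest call of all, with an edgeR adjusted p of 0.0479. It was lost in 9 of 15 alternative treatments of the data, among them each of the 4 in which a library was left out, and the adjusted p of edgeR or DESeq2 ranged from 0.0230 to 0.272 over the 15. DNAJB2, DNAJB4 and DNAJC7, also cytosolic, did not pass, and their libraries overlapped between the animals. Their log2 fold changes were -0.07 (SE 0.21), 0.43 (SE 0.31) and 0.15 (SE 0.21) in that order.

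**Figure D2:**
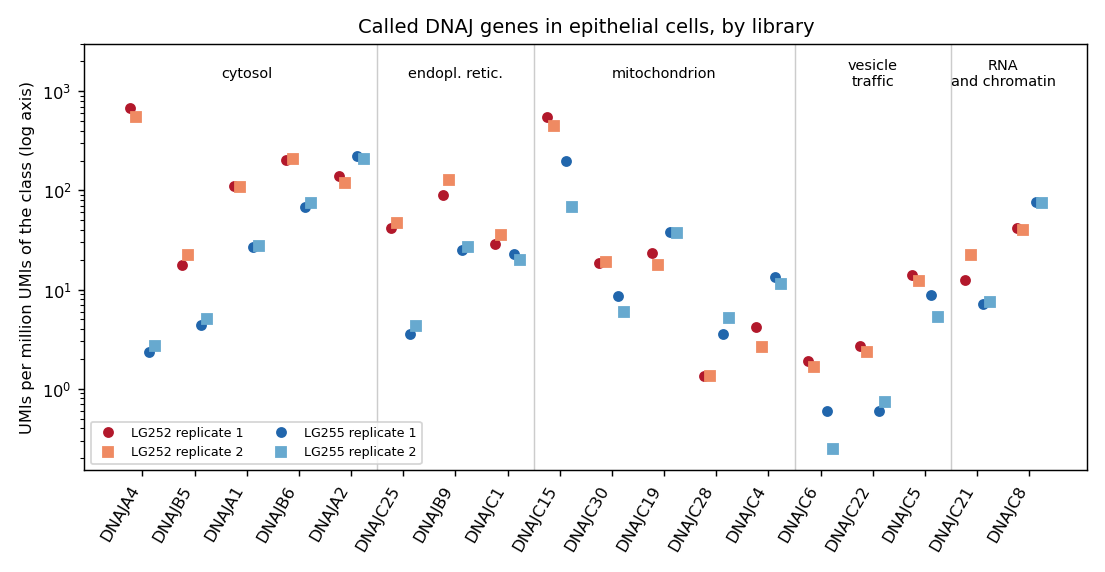
CPM on a log axis of the 18 DNAJ genes called in epithelial cells, with 1 point for each library, ordered by the place where the protein acts. DNAJA4 spans from 2.36 CPM in LG255 replicate 1 to 682 CPM in LG252 replicate 1, and DNAJC15 is the gene whose LG255 libraries lie farthest apart among those above 10 CPM.

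Among 10 tested members of the endoplasmic reticulum, 3 rose and 0 fell, beside 20.5% and 12.8% of all genes tested. DNAJC25 (chromosome 8, 122624837 to 122633195) had 41.9 and 46.5 CPM in LG252, against 3.55 and 4.30 CPM in LG255, an 11.6-fold difference. Its log2 fold change of 3.54 with an SE of 0.25 (adjusted p = 3.73e-05 in edgeR) was second to that of DNAJA4. DNAJB9, also known as ERdj4, binds the HSP70 protein BiP and takes part in the degradation of misfolded proteins (chromosome 9, 72981087 to 72987985). It reached 89.2 and 128.5 CPM in LG252, against 25.1 and 27.2 CPM in LG255, a log2 fold change of 2.15 with an SE of 0.24 (adjusted p = 2.75e-04 in edgeR). The lower LG252 library was still well above either LG255 library. DNAJC1, a J protein of the reticulum membrane that also binds ribosomes (chromosome 11, 68322100 to 68433319), had 29.2 and 35.4 CPM in LG252, against 22.8 and 19.7 CPM in LG255.

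The DNAJC1 difference was a log2 of 0.72 with an SE of 0.20 (adjusted p = 0.0242 in edgeR), and it was lost in 5 of 15 alternatives, namely those without LG252 replicate 2, LG255 replicate 1 or LG255 replicate 2, the DESeq2 test and thinned cells. The other 7 tested members of this place did not pass. DNAJB11, the abundant soluble partner of BiP, had 20.5 and 20.1 CPM in LG252, against 26.3 and 16.0 CPM in LG255, with the LG252 libraries lying between those of LG255. DNAJC3, an inhibitor of translation-regulating eIF2α kinases, had 10.3 and 8.81 CPM in LG252, against 7.68 and 7.87 CPM in LG255, with an edgeR adjusted p of 0.277. DNAJB14, a membrane protein with the J domain facing the cytosol, came nearest to the threshold at 19.5 and 26.6 CPM in LG252, against 18.3 and 14.6 CPM in LG255 (edgeR adjusted p of 0.0707). DNAJB12, DNAJC14, DNAJC16 and DNAJC18 had log2 fold changes from -0.26 to 0.37.

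The mitochondrial members split by direction. All 7 were tested and the animals overlapped in none of them: 2 were higher in both LG252 libraries and 5 were lower, where 29.8% of all genes tested separated upward and 40.1% downward. DNAJC15 and DNAJC30 rose, and DNAJC4, DNAJC19 and DNAJC28 fell, where 20.5% of all genes tested were higher and 12.8% lower. DNAJC15, a protein of the inner membrane that is tied to protein import and to the respiratory chain (chromosome 3, 3798332 to 3829504), had 551 and 442 CPM in LG252. In LG255 it had 198 and 68.0 CPM, so the LG255 libraries stood further apart from one another, as a ratio, than the nearest libraries of the animals. Its log2 fold change was 2.08 with an SE of 0.39 (adjusted p = 0.00394 in edgeR), and the call was kept in all 15 alternatives. Its size moved with the LG255 library left out, to a log2 fold change of 2.86 without LG255 replicate 1 and 1.57 without LG255 replicate 2. DNAJC30, which is tied to the maintenance of complex I (chromosome 17, 19082528 to 19086417), had 18.6 and 18.8 CPM in LG252, against 8.57 and 5.90 CPM in LG255. Its log2 fold change was 1.53 with an SE of 0.25 (adjusted p = 0.00186 in edgeR).

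DNAJC19, a component of the motor that pulls proteins through the inner membrane (chromosome 6, 15871746 to 15885716), had 23.3 and 17.6 CPM in LG252, against 38.1 and 37.0 CPM in LG255. The log2 fold change was -0.76 with an SE of 0.22 (adjusted p = 0.0288 in edgeR). It no longer passed without LG252 replicate 2, LG255 replicate 1 or LG255 replicate 2, in the DESeq2 test (adjusted p = 0.0670), or with cells thinned to 1000 UMIs, where the log2 fold change was -0.23. DNAJC4 (chromosome 1, 234015749 to 234078518) was the member with the largest fall by log2 fold change, at 4.20 and 2.66 CPM in LG252, against 13.3 and 11.4 CPM in LG255. It was lower by a factor of 3.25, a log2 fold change of -1.70 with an SE of 0.31 (adjusted p = 0.00366 in edgeR). DNAJC28 (chromosome 3, 98445726 to 98449184) had 1.36 and 1.33 CPM in LG252, against 3.55 and 5.16 CPM in LG255, resting on 10 and 8 UMIs in LG252 and 12 and 42 in LG255. DNAJC28 could pass the filter on low counts only through LG255, so that the animals did not overlap for it is no separate result. Its log2 fold change was -1.64 with an SE of 0.46 (adjusted p = 0.0244 in edgeR), and it did not pass without LG255 replicate 2, in the DESeq2 test (adjusted p = 0.126) or when a TP63 UMI was required, a setting chosen after seeing the data. DNAJA3, the mitochondrial partner closest to bacterial DnaJ, and DNAJC11, a partner of the cristae-organising complex, had log2 fold changes of -0.28 (SE 0.27) and -0.29 (SE 0.24) and did not pass.

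Of 5 tested genes of vesicle traffic, 3 rose and 0 fell, beside 20.5% and 12.8% of all genes tested. All 3 were at low counts. DNAJC5, the cysteine string protein of secretory vesicles (chromosome 5, 167549283 to 167614075), had 14.0 and 12.3 CPM in LG252, against 8.87 and 5.29 CPM in LG255, a log2 fold change of 1.08 with an SE of 0.28 (adjusted p = 0.0171 in edgeR). DNAJC6, or auxilin, which strips clathrin from vesicles (chromosome 5, 76122626 to 76168545), had 14 and 10 UMIs in LG252 and 2 and 2 in LG255. DNAJC22, whose fly homolog Wurst acts in clathrin endocytosis (chromosome 19, 1212807 to 1233422), had 20 and 14 UMIs in LG252 and 2 and 6 in LG255. Both genes could pass the filter on low counts only through LG252, so that the animals did not overlap for either is no separate result. The log2 fold changes were 2.35 (SE 0.68) for DNAJC6 and 1.93 (SE 0.54) for DNAJC22. Their edgeR adjusted p-values were 0.0267 and 0.0249 in that order. None of these 3 calls passed in the DESeq2 test of all 4 libraries, with adjusted p-values of 0.0684 for DNAJC5, 0.187 for DNAJC6 and 0.162 for DNAJC22. In addition, DNAJC5 did not pass without LG255 replicate 2, DNAJC6 without either LG255 library, and DNAJC22 without either LG255 library or LG252 replicate 1. DNAJC13, which acts at endosomes, and DNAJC27 had log2 fold changes of -0.12 (SE 0.23) and 0.72 (SE 0.50) and did not pass.

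Among the 6 genes that act on RNA, ribosomes or chromatin, DNAJC21 rose and DNAJC8 fell, beside 20.5% and 12.8% of all genes tested. DNAJC21, a factor of large ribosomal subunit maturation (chromosome 8, 22394470 to 22415906), had 12.5 and 22.3 CPM in LG252, against 7.09 and 7.50 CPM in LG255. The log2 fold change was 1.32 with an SE of 0.32 (adjusted p = 0.0127 in edgeR). DNAJC8, a splicing-associated nuclear protein (chromosome 15, 44250147 to 44263949), had 41.8 and 40.2 CPM in LG252, against 76.5 and 74.0 CPM in LG255. Libraries of each animal were nearly alike, and the log2 fold change was -0.76 with an SE of 0.19 (adjusted p = 0.0141 in edgeR), which did not pass without LG255 replicate 2. DNAJC9, a histone chaperone, had 30.8 and 24.4 CPM in LG252, against 29.0 and 30.4 CPM in LG255, the largest adjusted p of the 38 (0.992 in edgeR). DNAJC2, DNAJC17 and DNAJC24 had log2 fold changes of 0.13 (SE 0.24), -0.07 (SE 0.24) and -0.67 (SE 0.30) and did not pass. The remaining members tested, DNAJC12 and DNAJC5G, had log2 fold changes of 0.89 (SE 0.47) and 0.28 (SE 0.34) and did not pass either.

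Other genes of the HSP70 system and of the endoplasmic reticulum stress response were taken from lists of their textbook members. In epithelial cells, 12 of 27 tested genes of HSP70 chaperones and their partners were higher in LG252 and 2 were lower, beside 20.5% and 12.8% of all genes tested, and the list's median log2 fold change was 0.19. The list held 30 genes, of which HSPA1A, HSPA1B and HSP90AA1 were not among the features under those names. HSPH1, a nucleotide exchange factor of HSP70, had 135 and 206 CPM in LG252, against 4.14 and 3.32 CPM in LG255 (log2 fold change 5.64, SE 0.30). BAG3, another exchange factor, had 773 and 943 CPM in LG252, against 39.9 and 34.4 CPM in LG255 (log2 fold change 4.65, SE 0.26). HSPA8, the constitutive HSP70 with which the cytosolic DNAJ proteins work, had 1468 and 1250 CPM in LG252, against 108.5 and 87.7 CPM in LG255 (log2 fold change 3.92, SE 0.26). HSPA5, or BiP, the partner of DNAJB9 and DNAJB11, had 437 and 325 CPM in LG252, against 41.7 and 29.9 CPM in LG255 (log2 fold change 3.56, SE 0.26). These 4 genes were named for the smallest p-values of that list, so that their libraries did not overlap between the animals is no separate result.

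Of 20 genes of the stress response of the reticulum, 11 were higher in LG252 and 0 were lower by edgeR, beside the same 20.5% and 12.8% of all genes, with a median log2 fold change of 0.89. HSPA5, HSP90B1 and HYOU1 are also on the HSP70 list, so the counts of the lists are not separate results. XBP1, among the 11, had 34 and 24 UMIs in LG252 and 1 and 0 in LG255. It could pass the filter on low counts only through LG252. Of the genes with an unadjusted p under 0.05, 13 lay above 0 and 1 below, where 5687 of all 12591 genes had such a p. TRIB3, a pseudokinase induced by that response, had 71.7 and 71.0 CPM in LG252, against 4.43 and 3.20 CPM in LG255 (log2 fold change 4.38, SE 0.23). DDIT3, the transcription factor CHOP, had 457 and 428 CPM in LG252, against 105.5 and 118 CPM in LG255 (log2 fold change 2.09, SE 0.23). HYOU1, a large HSP70-related chaperone of the reticulum, had 29.7 and 24.9 CPM in LG252, against 8.57 and 7.13 CPM in LG255 (log2 fold change 1.93, SE 0.24). The libraries of the animals did not overlap for any of these genes, where 29.8% of all genes tested separated upward. The genes were named by smallest p, so this is no separate result.

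Per cell, DNAJA4 was found in most epithelial cells of LG252 and in few of LG255. A UMI of DNAJA4 was present in 89.8% and 81.6% of epithelial cells in LG252, against 1.54% and 2.36% in LG255. The median depth of these cells was 11958 and 8401.5 UMIs in LG252, against 6863 and 9010 UMIs in LG255. Cells were therefore also thinned to 1000 UMIs each, which left out 0 and 2 shallower epithelial cells in LG252 and 3 and 10 in LG255. The share was then 41.3% (95% exact interval 37.2 to 45.4) and 32.6% (29.0 to 36.5) in LG252, and 0.442% (0.0536 to 1.59) and 0.114% (0.00288 to 0.632) in LG255. These intervals cover counting error over cells only, and cells are not replicates of an animal. DNAJA1 was found in 12.9% and 8.44% of thinned epithelial cells in LG252, against 0.885% and 2.05% in LG255, and without thinning in 63.0% and 53.7% in LG252, against 13.8% and 20.1% in LG255. DNAJC25 was found in 4.41% and 3.66% of thinned epithelial cells in LG252, against 0.221% and 0.228% in LG255, and without thinning in 35.4% and 30.3% in LG252, against 2.64% and 3.71% in LG255.

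Thinned shares of DNAJA4 in the remaining classes followed the animal as well. Thinning left out 88 and 75 mesenchymal cells in LG252 and 2 and 5 in LG255, and 214 and 106 other cells in LG252 and 60 and 80 in LG255. Without it the DNAJA4 share was 46.8% and 57.7% of mesenchymal cells in LG252, against 0% and 0.943% in LG255, and 77.5% and 65.5% of other cells in LG252, against 2.59% and 2.12% in LG255. After thinning, DNAJA4 was found in mesenchymal cells in 38.4% and 34.2% of LG252 cells, and in 0 of 17 and 0 of 101 LG255 cells, which allows shares of up to 17.6% and 2.97%. In other cells the share was 61.4% and 48.7% in LG252, against 1.43% and 0 of 203 cells in LG255, where a count of 0 allows up to 1.48%. No class was known to lack DNAJA4, so a share from free RNA could not be read off in LG252, and its part was not tested. The level of DNAJA4 in LG252 was not carried by shallow or deep cells alone. When epithelial cells of LG252 were split by depth into 3 equal bins, it was 839, 673 and 640 CPM from shallow to deep in replicate 1 and 724, 562 and 500 CPM in replicate 2. In other cells of LG252 it was 1981, 2158.5 and 1136 CPM in replicate 1 and 1358, 1304.5 and 629 CPM in replicate 2.

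**Figure D3:**
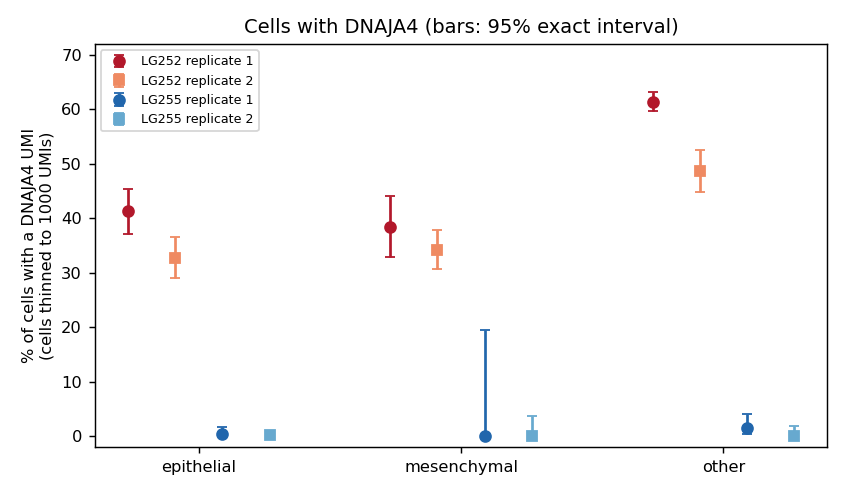
Percent of cells with at least 1 DNAJA4 UMI after each cell was thinned to 1000 UMIs, by class and library; bars are exact 95% binomial intervals, which cover counting error only. The LG252 libraries lie between 32.6% and 61.4% and the LG255 libraries at 1.43% or below, with the widest interval for the 17 mesenchymal cells of LG255 replicate 1.

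In mesenchymal cells only DNAJA4 passed. Of 25 members tested, 1 was higher in LG252 and 0 were lower in edgeR, where 0.340% of all 7637 genes were higher and 0.105% were lower. DNAJA4 could pass the filter on low counts only through LG252, so these counts describe the tested members and not the family. By an unadjusted p under 0.05, 4 members lay above 0 and 1 below, where 945 of all 7637 genes had such a p. DESeq2 called 2 members higher and 0 lower, and its share over all genes is not given. The median log2 fold change was 0.23 over the members and 0.02 over all genes. DNAJA4 had 717 and 552 CPM in LG252, against 0 and 2.13 CPM in LG255, on 2756 UMIs in the LG252 libraries and 1 UMI in the LG255 libraries. The ratio of the pooled levels was 338.5 with a 95% counting interval of 60.7 to 13370, and the edgeR adjusted p was 0.0170. The DNAJA4 call was lost without LG255 replicate 1 and without LG255 replicate 2. Its log2 fold change was 8.35 without LG252 replicate 1 and 8.70 without LG252 replicate 2. Of the further lists, 1 of 23 tested HSP70 genes and 1 of 18 tested reticulum stress genes were higher in LG252, HSPA2 and DDIT3, the first of which is named here after its values were seen. DDIT3, with 0 and 3 UMIs in LG255, could pass the filter on low counts only through LG252. The count for the reticulum stress genes thus describes the tested genes and not the list.

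No other member that rose in epithelial cells passed here, at the depth of 19 and 106 LG255 cells. Both LG252 libraries were above both LG255 libraries for 6 of the 25 members and below them for 8, where 20% of all genes tested separated upward and 28.2% downward. DNAJC4 and DNAJC17, among the 8, could pass the filter on low counts only through LG255. DNAJA4, among the 6, could pass it only through LG252. That these genes separated is thus no separate result. DNAJC15 had 335 and 425 CPM in LG252, against 138 and 57.5 CPM in LG255, which did not overlap but gave an edgeR adjusted p of 0.122. DNAJB9 had 71.2 and 86.6 CPM in LG252, against 27.5 and 42.6 CPM in LG255, with an edgeR adjusted p of 0.342. DNAJC25 had 33.5 and 49.5 CPM in LG252, against 9.18 and 19.2 CPM in LG255, the LG255 levels resting on 1 and 9 UMIs. DNAJA1 had 64.9 and 97.8 CPM in LG252, against 27.5 and 83.1 CPM in LG255, and here the animals overlapped. DNAJC4 was lower in both LG252 libraries, at 6.28 and 11.2 CPM in LG252, against 36.7 and 23.4 CPM in LG255, and did not pass (edgeR adjusted p of 0.375). The 6 RNA and chromatin members all had a log2 fold change below 0, from -0.58 to -0.32 (SE 0.41 to 0.52), and none passed. Their levels in LG255 replicate 1 rest on 2 to 9 UMIs. The sign of DNAJC17 was fixed by the filter, so the shared direction is no separate result. Of all 25 members tested here, 12 lay below 0, and the median over all genes was 0.02. In epithelial and in other cells, 3 of these 6 members lay above 0 and 3 below.

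In other cells, 4 of 31 members tested were higher in LG252 and 0 were lower in edgeR, where 3.86% of all 10713 genes were higher and 1.43% were lower. By an unadjusted p under 0.05, 8 members lay above 0 and 2 below, where 3170 of all 10713 genes had such a p. DESeq2 called 5 members higher and 0 lower, and its share over all genes is not given. The median log2 fold change was 0.34 over the members, against -0.00029 over all genes. DNAJA4 had 1552 and 880 CPM in LG252, against 7.55 and 5.54 CPM in LG255, a log2 fold change of 7.58 with an SE of 0.53 (adjusted p = 0.0270 in edgeR). DNAJB6 had 349.5 and 226 CPM in LG252, against 63.6 and 46.2 CPM in LG255 (log2 fold change 2.44 with an SE of 0.34, adjusted p = 0.0337 in edgeR). DNAJC25 had 40.8 and 65.4 CPM in LG252, against 5.39 and 8.31 CPM in LG255 (log2 fold change 2.93 with an SE of 0.50, adjusted p = 0.0424 in edgeR). DNAJA1 had 143 and 109 CPM in LG252, against 47.4 and 34.2 CPM in LG255 (log2 fold change 1.67 with an SE of 0.29, adjusted p = 0.0424 in edgeR). All 4 were also called in epithelial cells. The libraries of the animals did not overlap for any of them, where 29.1% of all genes tested separated upward. Of the further lists, 7 of 27 HSP70 genes and 3 of 19 reticulum stress genes were higher in LG252, with the 3 being HSPA5, DDIT3 and TRIB3. HSPA5 is on both lists and is counted in each.

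The make-up of the other cells moved with the animal, as the immune and EPCAM values above show. In a sum over cells, another mix of cell types and another level in each cell cannot be told apart. When only other cells with an immune marker UMI were kept, 1 member passed, DNAJA4, and the member median was -0.049. The log2 fold changes of the 3 lost calls stayed near their size, at 2.40 for DNAJB6, 1.62 for DNAJA1 and 2.64 for DNAJC25. When other cells with an EPCAM UMI were left out, a setting chosen after seeing the data, 2 passed, DNAJA4 and DNAJB6, and the lost calls had log2 fold changes of 1.98 for DNAJA1 and 2.94 for DNAJC25. No member passed without LG255 replicate 1 or without LG255 replicate 2. With LG252 replicate 1 left out, the log2 fold changes were 7.112 for DNAJA4, 2.098 for DNAJB6, 3.253 for DNAJC25 and 1.481 for DNAJA1. With LG252 replicate 2 left out, they were 7.972, 2.76, 2.611 and 1.895 in that order. In the main comparison, both LG252 libraries were above both LG255 libraries for 14 of the 31 members tested and below them for 7. Over all genes tested, 29.1% separated upward and 30.6% downward. DNAJB9, DNAJC15 and DNAJC30, which rose in epithelial cells, and DNAJC4, which fell there, were separated in the same direction in other cells. They did not pass, with edgeR adjusted p-values of 0.0825, 0.0861, 0.0905 and 0.0889 in that order. The same held, at larger edgeR adjusted p-values, for DNAJB5, DNAJC1, DNAJC5 and DNAJC21 upward and DNAJA2, DNAJC8 and DNAJC19 downward. DNAJC4, counted among the 7, could pass the filter on low counts in other cells only through LG255. That its libraries separated there is thus no separate result.

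**Figure D4:**
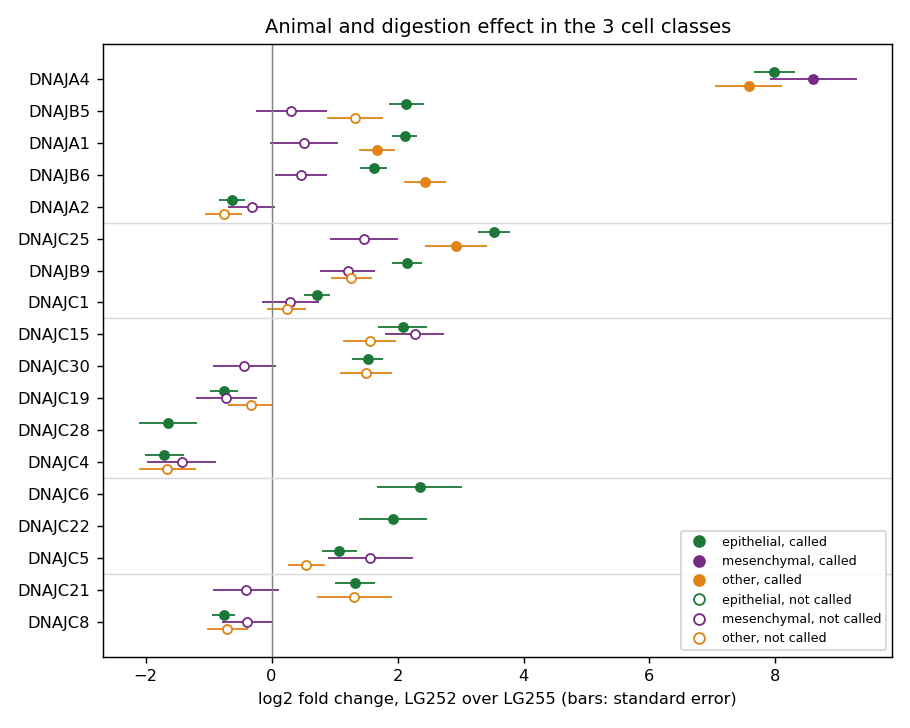
Log2 fold change of LG252 over LG255 (horizontal axis, bars: standard error) in the 3 classes for the 18 members called in epithelial cells; filled points passed an edgeR adjusted p of 0.05 in that class. DNAJA4 lies apart from all others, at 7.98 in epithelial and 7.58 in other cells; its fitted value in mesenchymal cells depends on the prior count, since 1 LG255 library there had 0 UMIs.

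The difference between classes was itself tested, with the library as a block. For mesenchymal against epithelial cells, 0 of 37 members and 0 of 13640 genes passed in edgeR (0% of genes), and DESeq2 called 0 members. By an unadjusted p under 0.05, 4 members differed, each with a lower fold change in mesenchymal cells, where 915 of all 13640 genes had such a p. The log2 differences were -1.81 (SE 0.57) for DNAJC30, -1.83 (SE 0.58) for DNAJC25, -1.66 (SE 0.69) for DNAJB5 and -1.37 (SE 0.59) for DNAJA1, and the smallest edgeR adjusted p of any member was 0.713. In that order, these genes had 3 and 9, 1 and 9, 3 and 6, and 3 and 39 UMIs in mesenchymal cells of LG255. The median difference was 0.08 over the members and 0.20 over all genes, so these differences are lower still against the median gene. With cells thinned to 1000 UMIs, the DNAJC30 difference turned to 3.79. For other against epithelial cells, 0 of 37 members passed in edgeR, where 2 of 13640 genes passed (0.0147%), and DESeq2 called 0 members. An unadjusted p under 0.05 was found for 0 members and for 1496 of the 13640 genes. The member with the smallest p there was DNAJB6, with a log2 difference of 0.84 (SE 0.45, edgeR adjusted p of 0.538). Without LG252 replicate 2, 1 member passed in each comparison: DNAJA1 in mesenchymal cells, at a log2 difference of -1.86, and DNAJB6 in other cells, at 1.21.

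Beside the animal, some members differed in level between the classes of the same library. Of 25 members tested in all 3 classes, 9 were higher in mesenchymal than in epithelial cells in all 4 libraries and 2 were lower. These 36% and 8% of members stood near the 39.5% and 8.67% of 7131 genes that were higher and lower. In other against epithelial cells, 7 members were higher in all 4 libraries and 4 were lower, against 20.2% and 22.1% of genes. DNAJC15 and DNAJA2 were the members lower in mesenchymal than in epithelial cells, and both were lower in other cells too. DNAJC5 showed the reverse order: its 14.0 and 12.3 CPM in epithelial cells of LG252 stood below 28.3 and 34.4 CPM in mesenchymal and 36.9 and 34.5 CPM in other cells. In LG255 it had 8.87 and 5.29 CPM in epithelial, 27.5 and 6.39 CPM in mesenchymal and 29.1 and 21.3 CPM in other cells. The mesenchymal levels of DNAJC5 in LG255 rest on 3 UMIs in each library. DNAJA4 had 1552 and 880 CPM in other cells of LG252, above its 682 and 555 CPM in epithelial cells; in LG255 its order between these classes rests on 7 and 6 UMIs in other and 8 and 22 UMIs in epithelial cells. In mesenchymal against other cells, 6 members were higher in all 4 libraries and 2 were lower, beside 34.6% and 5.76% of genes. In LG255 replicate 1, where 3 UMIs were worth 27.5 CPM in mesenchymal cells, an order that involves that class rests on few UMIs. These orders are a description, as the classes of 1 library share animal, digestion and run.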

How the data were processed

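Per the labels, cells of 2 animals were made into 4 single-cell 3' libraries, and the deposited matrices hold UMI counts, not normalized, for each gene and cell barcode; the file headers name Cell Ranger 7.1.0 and the submitters' processing notes name 2.1.0. All deposited barcodes were used (4355 and 2211 in LG252, 755 and 1291 in LG255), with 20754804 and 12860780 UMIs in LG252 and 4535439 and 9830392 in LG255. Cells meeting both class rules (16 and 30 in LG252, 11 and 13 in LG255) were left out as possible doublets, and a doublet caller (Scrublet in scanpy 1.11.5, marking 0.8% of cells per 1000 cells) served as an alternative. Counts were summed per class and library, scaled by TMM, filtered by filterByExpr and tested with edgeR 4.0.16 in R 4.3.3 (glmQLFit and glmQLFTest, Benjamini-Hochberg over all genes of a class, threshold 0.05). Where a library was left out, the lone library of that animal was assumed to vary as the others do. DESeq2 1.42.0 was an alternative. Values in every library are given for members that passed in any class or had a log2 fold change past 1 in epithelial cells, and at most 4 genes of each further list by smallest p. The members and lists were chosen with earlier results of these data known. The replicate numbers name libraries of different animals and were not taken as pairs. Gene positions come from the RefSeq annotation of MPM_Emac_v1.0, the assembly the series names, in which all 42 members matched. Sequences of promoters and proteins were not used here. Exact binomial intervals have 95% confidence, and an upper limit for 0 cells is 3 cells of the total.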

Additional observations from a re-analysis of the deposited data

Results flagged for a closer look

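The cells left out for meeting both class rules also carried DNAJA4. It stood at 647.7 CPM in the 16 such cells of LG252 replicate 1, on 171 UMIs, and at 535.1 CPM in the 30 such cells of LG252 replicate 2, on 181 UMIs. In LG255 it was at 0 CPM in the 11 such cells of replicate 1, where 3 UMIs would be 26.1 CPM, and at 20.6 CPM in the 13 such cells of replicate 2, on 3 UMIs. These cells are left out of the comparisons above except in the alternative that counts them as epithelial, and their LG252 levels stand above those of the LG255 libraries. Scrublet kept 12 of the 16 and 22 of the 30 such cells in LG252, and all 11 and 13 in LG255. As it was set to mark a fixed share of each library, it cannot settle whether these cells are doublets.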

How the results depend on the processing

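In epithelial cells, DNAJA1, DNAJA4, DNAJB6, DNAJB9, DNAJC15 and DNAJC25 passed in all 15 alternatives, and DNAJB5, DNAJC4, DNAJC21 and DNAJC30 in the 14 in which they were tested. The epithelial number of higher members ranged from 9 to 12 when a library was left out, of lower members from 1 to 4, and the median log2 fold change from 0.17 to 0.41. With cells thinned to 1000 UMIs, 17 members were tested, of which 7 were higher and 1 lower, with a median of 0.73, and the DESeq2 test gave 9 higher and 3 lower, losing 6 of the 18 calls (DNAJC1, DNAJC5, DNAJC6, DNAJC19, DNAJC22 and DNAJC28). In mesenchymal cells, leaving out a library gave 0 to 2 higher, 0 lower and a median of -0.14 to 0.20; the DESeq2 test gave 2 higher, no filter on low counts 2, and thinning a median of 0.48. In other cells, leaving out a library gave 0 to 11 higher, 0 to 3 lower and a median of 0.17 to 0.56. There, no filter gave 7 higher and 1 lower, an immune UMI 1 higher and a median of -0.049, no EPCAM UMI 2 higher, and thinning a median of 0.56. The differences between classes gave 0 to 1 members each when a library was left out, and the DNAJC30 difference between mesenchymal and epithelial cells turned to 3.79 with thinned cells. The cause of these shifts was not tested. Thinning and leaving out libraries leave fewer counts, and the part of that was not tested either. Shares of all genes that passed in these alternatives are not given, so the numbers of members have no background beside them.

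With the replicate number as a block, 13 members were higher and 4 lower in epithelial cells, 1 and 0 in mesenchymal cells and 5 and 0 in other cells, with medians of 0.37, 0.19 and 0.34. The correlation over genes between deviations of same-numbered libraries was -0.0936 in epithelial, -0.0208 in mesenchymal and -0.03 in other cells. Same-numbered libraries thus did not deviate together. What the replicate numbers stand for cannot be read from these correlations. For the differences between classes this block was not run, since the library is already a term. The mesenchymal sums of LG255 were the shallowest, at 108984 and 469458 UMIs.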

Other observations

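All 4 members on chromosome 8 were higher in epithelial cells of LG252: DNAJB5, DNAJC21, DNAJC25 and DNAJA1. Of the 592 genes tested on that chromosome, 24.7% were higher. This grouping was chosen after the values were seen and has no test.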
